A study of Mus musculus with 8 samples.

Results

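The 9 genes described here code for neural cell adhesion molecules of the immunoglobulin superfamily: the contactins Cntn1, Cntn3 and Cntn4, the neural cell adhesion molecules Ncam1 and Ncam2, and the L1 family members L1cam, Nrcam, Nfasc and Chl1. They were followed in fibroblasts of the colon of wild-type C57BL/6J mice, sorted into a population without (CD90-) and one with (CD90+) the surface glycoprotein CD90, which is coded by Thy1. All cells had been gated as lacking Epcam, CD45 and CD31 and as carrying GP38, also called podoplanin. Each population had 4 samples with 1 array each, numbered as in their titles: 13, 15, 17 and 19 for CD90- and 14, 16, 18 and 20 for CD90+. The samples came from 4 mice, but no label ties a sample to a mouse, so p-values measure only the spread between these samples. Age, sex and any treatment of the mice are not given in the sources used here.

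A gene was taken as its array row (transcript cluster) whose platform annotation named that gene alone; with several rows, the one with the highest mean over the 8 arrays was kept. Each of the 9 genes had 1 such row, so this choice used none of their values. They were 9 of 30827 genes with such a row, and 6 of them were among the 17283 genes that reached 5.36, the median of all clusters, on at least 4 arrays. The group was chosen by the difference of Cntn1 between the populations, known from earlier results of these data, which ranked 4 of 17283 among the rises. The other 8 genes stand beside it as neural cell adhesion genes, and their values may have been known as well. The difference of Cntn1 is therefore described without a test. The other members that passed the filter were tested with limma over all 17283 genes, with Benjamini-Hochberg adjustment. Values are log2 expression as deposited, and differences are CD90+ minus CD90-. Levels of different genes come from different probes and were not set against each other.

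Contactins are held to the outer face of the membrane by a lipid anchor, whereas NCAM and L1 family proteins mostly span it. All are built from immunoglobulin and fibronectin type III domains, and they bind partners on the same or a neighbouring cell, among them contactin-associated proteins, receptor phosphatases and neurexins. Inside the cell, the L1 family is tied to the spectrin skeleton through ankyrins. In the gut these genes are known mainly from enteric neurons and glia, and NCAM is also found on part of the mesenchyme.

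The 8 arrays had cluster medians of 5.30 to 5.41. The array's negative control rows had medians of 6.79 to 6.84 on the CD90- and 6.58 to 6.67 on the CD90+ arrays. A value below these shows neither that a transcript was present nor that it was absent, and its size is uncertain. Thy1 ran from 5.46 to 5.57 on the CD90- and from 7.03 to 8.11 on the CD90+ arrays, with its lowest CD90+ value on array 14 (difference 2.17; p = 0.0286 in an exact permutation test, two-sided, which cannot go lower with 4 samples a group). Because the cells were sorted on the protein that Thy1 codes for, this difference is a check of the sort and no separate result. The listed fibroblast markers were bright on every array, with a mean between 15.36 and 15.67. Arrays 13 and 14 stood apart from the rest: Xist, the noncoding RNA of X inactivation, was at 16.16 and 16.27 there and between 5.89 and 9.32 on the others. Uty, which lies on the Y chromosome, was at 5.49 and 5.56 on arrays 13 and 14 and between 9.65 and 10.06 on the others. The results of the 6 members that passed the filter and the counts of the partner and adhesion lists are therefore also given without array 14. Array 13 stayed in those fits, and differences without both arrays are given further below.

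Promoter windows of Cntn1, Chl1 and L1cam are shown because these members passed the filter, were higher on the CD90+ arrays and had their lowest CD90+ value on array 14. Nrcam also had its lowest CD90+ value on array 14, but it stayed under the filter and its window is not shown. The windows are RefSeq's (GRCm38.p6), from 250 bases before to 50 after the most upstream listed start; 8 of the 9 members had one. Capitals mark matches, on either strand, to 4 short motifs: CCAAT, which is bound by the factor NF-Y, and GGGCGG, the core of sites for SP1, as well as TATAAA, the TATA box, and CAGCTG, one form of the E-box. No matches overlapped. The windows are chr15:92050915-92051214 (plus strand) for Cntn1, chr6:103510626-103510925 (plus strand) for Chl1 and chrX:73880785-73881084 (minus strand) for L1cam.
Cntn1: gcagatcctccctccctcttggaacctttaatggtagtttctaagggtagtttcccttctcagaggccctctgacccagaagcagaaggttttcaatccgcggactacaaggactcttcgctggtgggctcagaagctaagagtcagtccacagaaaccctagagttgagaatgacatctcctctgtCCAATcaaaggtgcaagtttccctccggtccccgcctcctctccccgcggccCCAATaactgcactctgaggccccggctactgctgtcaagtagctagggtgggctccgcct
Chl1: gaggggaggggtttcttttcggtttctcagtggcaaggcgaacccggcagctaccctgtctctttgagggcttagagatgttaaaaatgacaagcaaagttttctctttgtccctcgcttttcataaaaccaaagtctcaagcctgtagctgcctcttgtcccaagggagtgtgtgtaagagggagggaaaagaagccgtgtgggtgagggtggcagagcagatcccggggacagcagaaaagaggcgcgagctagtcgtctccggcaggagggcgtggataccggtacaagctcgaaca
L1cam: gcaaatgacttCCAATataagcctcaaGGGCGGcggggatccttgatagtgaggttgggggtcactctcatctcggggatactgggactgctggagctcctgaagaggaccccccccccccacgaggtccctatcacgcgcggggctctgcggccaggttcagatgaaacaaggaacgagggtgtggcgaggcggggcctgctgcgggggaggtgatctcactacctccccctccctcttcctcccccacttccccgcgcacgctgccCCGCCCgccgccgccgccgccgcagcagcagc
The Cntn1 window held 2 matches to CCAAT, beginning 63 and 11 bases before the start, and the L1cam window held 1. L1cam also had 2 matches to GGGCGG, on opposite strands. The Chl1 window held none of these letters. Of 32851 windows of this length, 37.4% held CCAAT, 35.7% GGGCGG, 13.6% TATAAA and 16.3% CAGCTG. No motif was found in all 3 windows, and each motif found was common among all windows.

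Cntn1 (cluster TC1500000901.mm.1), a GPI-anchored partner of contactin-associated proteins and of receptor phosphatases on neurons and glia, was at 5.92, 5.62, 5.96 and 5.96 on CD90- arrays 13, 15, 17 and 19. On CD90+ arrays 16, 18 and 20 it was at 12.69, 13.0 and 12.84, and on CD90+ array 14 at 7.78. The populations did not overlap, although array 14 stood far closer to the CD90- arrays than to the other CD90+ arrays. The means were 5.87 ± 0.16 and 11.58 ± 2.53 (SD, n = 4), a difference of 5.71. Without array 14 the difference was 6.98. All 4 CD90- values lay below the negative control rows, so the size of this difference is not exact.

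Cntn4 (TC0600001180.mm.1), a contactin that binds amyloid precursor family proteins, was at 5.18, 5.07, 5.13 and 5.04 on the CD90- arrays in the same order. Its values on CD90+ arrays 16, 18 and 20 were 6.45, 6.96 and 6.52, and that on array 14 was 7.60. Here array 14 was the highest of all, the reverse of Cntn1. Cntn4 rose by 1.77 ± 0.23 (SE; limma adjusted p = 0.000503), and by 1.53 ± 0.12 without array 14 (limma adjusted p = 7.85e-05). All 4 CD90- values and 2 of the 4 CD90+ values lay below the negative control rows. It passed the filter only through its CD90+ arrays, so it had to differ to be tested.

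Cntn3 (TC0600002870.mm.1), a contactin of neurons, stayed under the filter on all 8 arrays. Its values ran from 4.52 to 4.97 on the CD90- and from 4.67 to 4.98 on the CD90+ arrays, and the populations overlapped. In a fit of all 30827 genes without the filter its difference was 0.07 (limma adjusted p = 0.771). Cntn1 and Cntn4 thus parted in the size of their difference and in the place of array 14, and Cntn3 lay too low for a comparison.

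**Figure D1:**
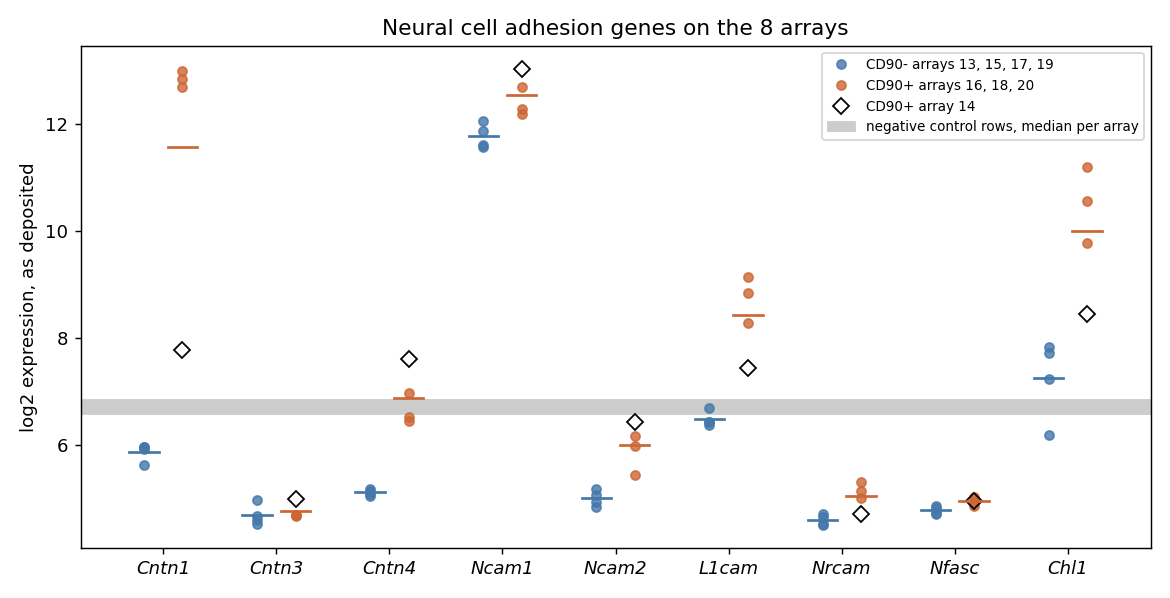
Log2 expression of the 9 genes on each array (points), with the mean of the 4 arrays of each population (lines), array 14 as an open diamond and the range of the negative control medians as a grey band. Cntn1 is at 7.78 on array 14 and between 12.69 and 13.0 on the other CD90+ arrays, while Ncam1 and Cntn4 have their highest value on array 14.

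Ncam1 (TC0900002254.mm.1) codes for the neural cell adhesion molecule, which also binds the growth factor GDNF and can carry polysialic acid. It was the only member above the negative control rows on all 8 arrays. On CD90- arrays 13, 15, 17 and 19 it was at 12.06, 11.88, 11.58 and 11.61. On CD90+ arrays 16, 18 and 20 it was at 12.69, 12.19 and 12.28, and on array 14 at 13.04. The lowest CD90+ value lay just above the highest CD90- value. Ncam1 rose by 0.77 ± 0.20 (SE; limma adjusted p = 0.0183), from 11.78 ± 0.23 to 12.55 ± 0.39 (SD, n = 4), and by 0.60 ± 0.16 without array 14 (limma adjusted p = 0.026). The call was lost without array 17 (0.70, limma adjusted p = 0.0526), without array 19 (0.71, limma adjusted p = 0.0541) and after another quantile normalization (0.79, limma adjusted p = 0.0745).

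Ncam2 (TC1600000918.mm.1), the olfactory relative of Ncam1, was at 5.05, 4.83, 5.17 and 4.93 on the CD90- arrays. Its values on CD90+ arrays 16, 18 and 20 were 5.43, 6.17 and 5.98, and that on array 14 was 6.43. Every value lay below the negative control rows, and the gene passed the filter only through its CD90+ arrays. It rose by 1.01 ± 0.19 (SE; limma adjusted p = 0.00463), with array 14 again the highest, and by 0.86 ± 0.17 without array 14 (limma adjusted p = 0.00783).

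L1cam (TC0X00003429.mm.1), an X-linked gene whose protein guides axon growth and binds integrins and neuropilin, was at 6.68, 6.43, 6.37 and 6.42 on the CD90- arrays. On CD90+ arrays 16, 18 and 20 it was at 9.14, 8.28 and 8.85, and on array 14 at 7.43. All CD90- values lay below and all CD90+ values above the negative control rows of their array. L1cam rose by 1.95 ± 0.32 (SE; limma adjusted p = 0.00208), and by 2.28 ± 0.19 without array 14 (limma adjusted p = 9.21e-05).

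Chl1 (TC0600001171.mm.1), the close homologue of L1, was at 6.18, 7.24, 7.83 and 7.71 on CD90- arrays 13, 15, 17 and 19. Its values on CD90+ arrays 16, 18 and 20 were 11.2, 9.78 and 10.57, and that on array 14 was 8.44. The lowest value of each population was on array 13 or 14, and that of array 13 lay below the negative control rows. Chl1 rose by 2.76 ± 0.59 (SE; limma adjusted p = 0.00803), from 7.24 ± 0.75 to 10.00 ± 1.19 (SD, n = 4). Without array 14 the rise was 3.28 ± 0.46 (limma adjusted p = 0.00128). Without both arrays 13 and 14 it was 2.92 ± 0.34 (limma adjusted p = 0.000778).

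Nrcam (TC1200000389.mm.1) and Nfasc (TC0100003080.mm.1) code for L1 family proteins of nodes of Ranvier, and both stayed under the filter and below the negative control rows on all 8 arrays. Nrcam ran from 4.50 to 4.71 on the CD90- arrays. It was at 5.31, 5.01 and 5.14 on arrays 16, 18 and 20 and at 4.70 on array 14, so the populations overlapped only through array 14. Without the filter its difference of 0.45 ± 0.13 (SE) passed the threshold (limma adjusted p = 0.0394; 8.0% of 30827 genes were higher in that fit). Nfasc ran from 4.71 to 4.85 and from 4.85 to 5.03, a difference of 0.16 (limma adjusted p = 0.128).

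Of the 5 members tested apart from Cntn1, 5 were called higher and 0 lower on the CD90+ arrays, where 14.0% of all 17283 genes were called higher and 15.7% lower (29.7% in either direction). This count includes Cntn4 and Ncam2, which reached the filter only on CD90+ arrays. In these 5 (Cntn4, Ncam1, Ncam2, L1cam and Chl1) the populations also did not overlap, with CD90+ higher. For Cntn4 and Ncam2 this was fixed by how they passed the filter. Over all genes tested, 14.9% did not overlap with CD90+ higher and 17.3% with CD90+ lower. Cntn1 did not overlap either, but its difference chose the group. Of the members under the filter, Nfasc did not overlap, and Cntn3 and Nrcam overlapped. The median difference of all genes tested was -0.014. In bulk samples, fewer cells of a type and less RNA per cell cannot be told apart.

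Of the 6 tested members, array 14 was the lowest of the 4 CD90+ arrays for 3 (Cntn1, Chl1 and L1cam) and the highest for 3 (Cntn4, Ncam1 and Ncam2). Over all genes tested it was the lowest in 34.0% and the highest in 30.3%. Both places were thus common, and the mix of them is not particular to the members. Among the members under the filter it was the lowest for Nrcam, the highest for Cntn3 and inside the range for Nfasc. The gap of array 14 to the mean of arrays 16, 18 and 20 was -5.06 for Cntn1, against a mean of 12.84 ± 0.15 (SD, n = 3), -2.08 for Chl1 and -1.33 for L1cam. For Cntn4, Ncam1 and Ncam2 it was 0.96, 0.65 and 0.57. A gap of at least 1 in either direction was found in 2.12% of the genes.

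By size, the array 14 gap of Cntn1 ranked 9 of 17283 genes. The 8 genes with a larger gap were Xist and 7 predicted genes of chromosome 2 (Gm13691 and Gm13693 to Gm13698, near-identical copies whose values are uncertain), named here after their values were seen. In these 8 genes array 13 was shifted in the same direction, by at least 1, against arrays 15, 17 and 19. The 7 predicted genes were low on arrays 15 and 16 as well, so their gap is not particular to arrays 13 and 14. Gm13694, for example, was at 8.84, 8.42, 10.44 and 10.67 on arrays 13 to 16 and at 15.16 to 16.24 on arrays 17 to 20. Its SD over arrays 16, 18 and 20 was 2.81, against 0.15 for Cntn1, so the ranking sets unlike patterns side by side. Cntn1 was at 5.92 on array 13 and at 5.85 ± 0.20 (SD, n = 3) on arrays 15, 17 and 19, all below the negative control rows. Whether a shift like that of array 14 was present in the CD90- sample on array 13 could therefore not be measured.

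Array 14 minus array 13 was set beside the CD90+ minus CD90- difference of the other 6 arrays, without a test, since each side of the first value is 1 array. For Cntn1 the values were 1.87 and 6.99, for L1cam 0.75 and 2.35, and for Chl1 2.26 and 2.92. For Cntn4 they were 2.42 and 1.56, for Ncam1 0.98 and 0.69, and for Ncam2 1.38 and 0.88. Every difference was above 0 in both sets of arrays.

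Markers of other cells moved with these results, and their part in them was not tested. Of 15 listed enteric glia genes, 13 were measured and 12 tested. Of these, 11 were called higher and 1 lower, beside 14.0% and 15.7% of all genes tested. Gfap was tested only through its CD90+ arrays. The mean level of the 13 glia genes ran from 5.95 to 6.18 on the CD90- arrays. It was 7.39 on array 14 and ran from 7.89 to 8.53 on the other CD90+ arrays. Array 14 was the lowest CD90+ array for 10 of the 12, beside 34.0% of all genes tested. The median gap of the 12 was -0.82, against -5.06 for Cntn1. Among the defining markers, Sox10 was at 6.48 on array 14 and at 6.90 to 7.18 on the other CD90+ arrays, against 5.56 to 5.71 on the CD90- arrays. Foxd3 and Sox2 lay below the negative control rows on all 8 arrays, and Cryab was the member that fell, by 0.68 (limma adjusted p = 0.0252).

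Of 18 enteric neuron genes, 17 were measured and 15 lay below the negative control rows on all 8 arrays. The 4 that were tested were called higher, beside 14.0% of all genes tested. Array 14 was the lowest CD90+ array for 1 of the 4. Ret reached the filter only on CD90+ arrays, so it had to differ to be tested, and the other 13 measured genes were not tested. Stmn2, a microtubule regulator of growing neurites, was at 6.06 to 6.68 on the CD90- and 10.54 to 11.65 on the CD90+ arrays. Tac1, Uchl1 and Ret rose by 0.83, 0.71 and 0.82 from means below the control rows. Their CD90+ means of 6.41, 6.25 and 6.01 also lay below these rows, and only Tac1 on array 14, at 6.87, lay above. The smooth muscle genes went the other way on array 14, which was the highest CD90+ array for all 8 of them, beside 30.3% of all genes tested. The smooth muscle mean was 10.49 on array 14, against 9.20 to 9.27 on the other CD90+ arrays. On the CD90- arrays it ran from 9.27 to 9.99 and was highest on array 13, so a high value was not particular to array 14. Listed epithelial genes had a mean of 8.70 on array 14, 8.99 to 10.35 on the other CD90+ arrays and 8.26 to 10.36 on the CD90- arrays.

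**Figure D2:**
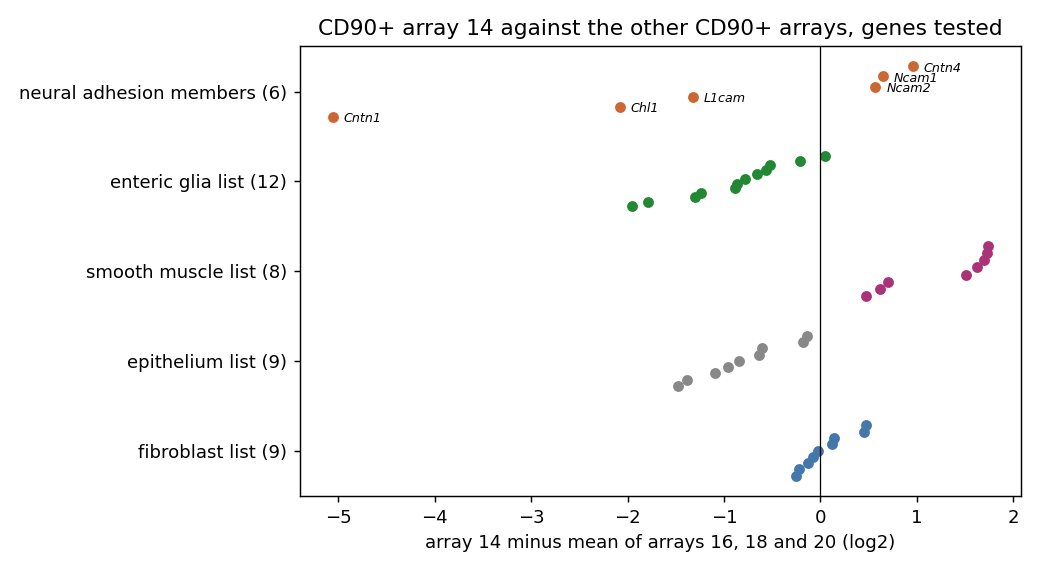
Array 14 minus the mean of CD90+ arrays 16, 18 and 20 (log2) for each tested gene (point) of the members and of 4 marker lists, with the number of genes in brackets. Cntn1 lies at -5.06, beyond every glia gene shown, while the smooth muscle genes and Cntn4, Ncam1 and Ncam2 lie above 0.

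Genes whose pattern was most like that of a member were taken by the root mean square distance between profiles centred on their own mean over the 8 arrays. Array 14 counts in this distance, so its place in the genes picked largely follows from the choice. For Cntn1 these were Cdh19 at a distance of 1.13, Kcna1 at 1.14, Lepr at 1.34, Gfra2 at 1.37 and Hapln1 at 1.39. In all 5 array 14 was the lowest CD90+ array, with gaps from -0.72 for Hapln1 to -1.95 for Cdh19. Cdh19, a cadherin of glia, was at 8.97 on array 14 and at 10.07 to 11.74 on the other CD90+ arrays. Cdh19, Kcna1 and Gfra2 also belong to the glia list, and Lepr codes for the leptin receptor. For Chl1 the closest were Slc35f1 at 0.52 and Rftn1 and Ccdc80 at 0.55. For L1cam they were Nkd2 at 0.16, Cdh2 at 0.19 and Fcgr2b at 0.22, and in all 3 array 14 was the lowest CD90+ array.

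Of the members whose highest CD90+ value was on array 14, Cntn4 had as its closest genes Myocd and Gria4 at 0.17 and Tspan18 at 0.21. Myocd, a coactivator of smooth muscle genes, was at 7.82 on array 14 and at 6.95 to 7.10 on the other CD90+ arrays. For Ncam1 they were Adamts5 at 0.088, Mmp23 at 0.12 and Lgmn at 0.14, and for Ncam2 they were Slco5a1 at 0.15 and Cntnap4 and Trpc6 at 0.16.

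Chl1 and Cntn4 are neighbours on chromosome 6: in RefSeq's annotation the protein-coding genes Cntn3, Chl1, Cntn6 and Cntn4 follow each other, between Pdzrn3 and Il5ra. Cntn6, a contactin outside the 9 genes, was at 4.95, 5.23, 4.88 and 4.91 on CD90- arrays 13, 15, 17 and 19. On CD90+ arrays 16, 18 and 20 it was at 7.27, 9.36 and 8.71, and on array 14 at 9.50. It rose by 3.72 ± 0.43 (SE; limma adjusted p = 0.000281) and, like Cntn4, reached the filter only on CD90+ arrays, with array 14 the highest. Thus the adjacent genes Chl1, Cntn6 and Cntn4 rose, while Pdzrn3, on the other side of Cntn3, differed by -0.12 (limma adjusted p = 0.56) and Trnt1, beyond Il5ra, by -0.047 (limma adjusted p = 0.748). Il5ra and Cntn3 stayed under the filter.

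**Figure D3:**
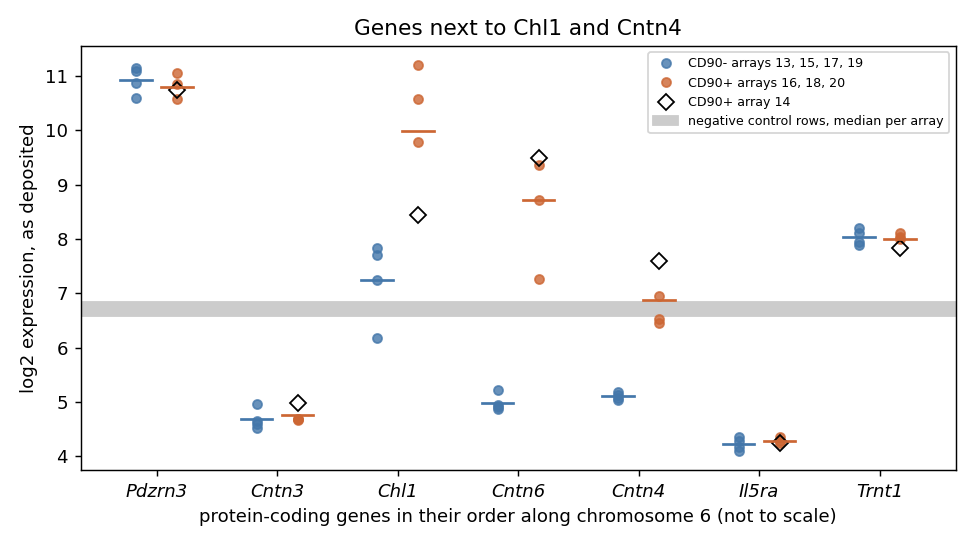
Log2 expression on each array (points, means as lines) for protein-coding genes in their order along chromosome 6, not drawn to scale; the diamond is array 14 and the grey band the negative control medians. Chl1, Cntn6 and Cntn4 are higher on the CD90+ arrays, and array 14 is lowest for Chl1 and highest for Cntn6 and Cntn4.

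Many partners of these adhesion molecules were higher on the CD90+ arrays. Of 47 listed partners 43 were measured and 31 tested; 18 were called higher, 6 lower and 7 neither, with a median difference of 0.53. The higher share was 58.1%, beside 14.0% of all genes, and the lower share 19.4%, near the 15.7% of all genes. Without array 14, and without arrays 13 and 14, 18 were again called higher and 6 lower. Ptprz1, a receptor phosphatase that binds contactin-1, was at 6.83 on array 14 and at 6.87 to 8.34 on the other CD90+ arrays, against 4.78 to 5.07 on the CD90- arrays. It rose by 2.56 ± 0.31 (SE; limma adjusted p = 0.000381), and reached the filter only on CD90+ arrays. Nlgn1, a neuroligin that binds neurexins across synapses, rose by 2.13 ± 0.10 (SE; limma adjusted p = 1.87e-06).

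Cntnap5a, a contactin-associated protein, fell by 4.04, from 8.24 to 10.22 on the CD90- arrays to 4.80 to 5.16 on the CD90+ arrays (limma adjusted p = 6.05e-05). It reached the filter only on CD90- arrays. Gdnf, a growth factor that binds RET with a co-receptor and also NCAM, fell by 3.14 (limma adjusted p = 2.87e-06), from 8.33 ± 0.19 to 5.19 ± 0.32 (SD, n = 4). App, the amyloid precursor gene, differed by -0.056 (limma adjusted p = 0.56), and Adam10, a protease that sheds L1, by -0.028 (limma adjusted p = 0.892).

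Of 36 other adhesion genes of the immunoglobulin superfamily, 34 were measured and 25 tested; 11 were called higher, 5 lower and 9 neither, with a median difference of 0.27. These are shares of 44.0% and 20.0%, beside 14.0% and 15.7% of all genes, so the lower share is near that of all genes. Without array 14 the counts were 10 higher and 5 lower, and without arrays 13 and 14 they were 11 and 5. Besides Cntn6, the largest rises were those of Vcam1, an integrin ligand, by 3.10 ± 0.11 (SE; limma adjusted p = 5.38e-07) and of Cadm3, a cell adhesion molecule of neurons, by 2.28 ± 0.33 (SE; limma adjusted p = 0.000951). Alcam, which binds CD6 on T cells, fell by 2.61 ± 0.21 (SE; limma adjusted p = 3.4e-05). Kirrel and Nectin1 differed by 0.17 and 0.29 (limma adjusted p = 0.294 and 0.278). Neither list was tested as a set.

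**Figure D4:**
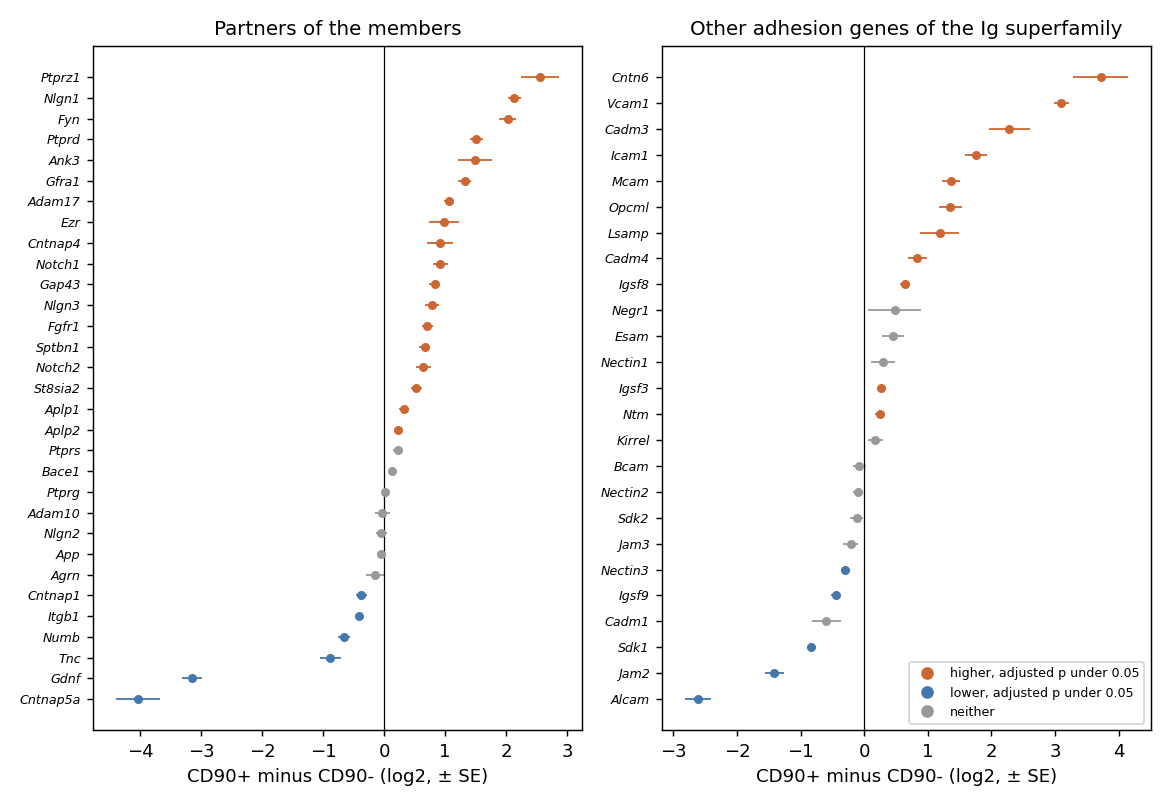
CD90+ minus CD90- difference (log2, points) with its standard error (bars) for the 31 tested partners and the 25 tested other adhesion genes, coloured by the limma call. Ptprz1 and Nlgn1 among the partners and Cntn6 and Vcam1 among the adhesion genes lie farthest to the right, and Cntnap5a, Gdnf and Alcam farthest to the left.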

How the data were processed

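The authors deposited log2 values for 72688 array rows of 8 Affymetrix mouse transcriptome arrays, hybridised from 2 ng of amplified RNA per the labels' protocols. Affymetrix Expression Console 1.1 and RMA were used per the submitters' processing notes; RMA corrects background, quantile-normalizes and summarises probes. The sources used here give neither the settings nor the array's genome build. The number of arrays limits the precision.

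Of 65956 transcript clusters, 31388 named 1 gene, 1362 several and 33206 none (unnamed here); symbols were updated through RefSeq gene identifiers. Clusters had to reach 5.36 (50th percentile) on at least 4 of 8 arrays. limma 3.58.1 (lmFit, eBayes; R 4.3.3) compared the populations without a block, two-sided; calls had a Benjamini-Hochberg adjusted p under 0.05. In simulated data for this comparison over 17283 genes, 60.0% of genes changed by 0.5, 94.0% changed by 1, 100.0% changed by 2 and 98.0% changed by 3 (log2) were called in the right direction. The simulation changed 50 genes per size, with noise independent between arrays, and 13 of its 189 called genes were unchanged. In the data 5129 genes were called and some arrays went together, so these rates may not hold there. The members and lists were chosen with earlier results of these data known. Named genes were the members, the closest profiles (5 for Cntn1, 3 for others), per list of partners or adhesion genes the 4 largest called differences and the 2 brightest genes not called, and per glia and neuron list the 3 brightest and the 3 largest differences. The gate genes Pdpn, Epcam, Pecam1 and Ptprc differed by 0.04, 0.14, 0.35 and 0.19. The first 3 were not called and Ptprc lay under the filter. Although the cells were gated as lacking Epcam, its transcript was at 7.21 to 9.40, above the negative control rows on all 8 arrays. It was at 9.19 on array 13 and 7.47 on array 14. Alternatives changed the filter, normalization, variance model, array weights, row choice, block and samples. Figures used matplotlib 3.10.9 in Python 3.11.15.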

Additional observations from a re-analysis of the deposited data

Results flagged for a closer look

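In a group of 4 arrays, a value was picked out when its gap to the nearest other value was too large a part of the group's range by Dixon's criterion; chance alone picks out a value in about 1 of 20 groups. Over 51 named genes and 102 groups, 11 values were picked out. Among the members these were Cntn1 on CD90+ array 14 (7.78, a description, since the values of Cntn1 were among those that chose the group and array 14 was singled out beforehand), Cntn1 on CD90- array 15 (5.62, with the other CD90- arrays between 5.92 and 5.96, all below the negative control rows) and Cntn3 on CD90+ array 14 (4.98, with the others between 4.67 and 4.69, under the filter).

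On CD90+ array 14 the same held for Hapln1 (11.19), Rftn1 (8.63) and Pdpn (13.54), the last above the other CD90+ arrays and the others below them. On the CD90- arrays it held for Adamts5 (9.40) and Nectin1 (9.47) on array 13, Ret (5.09) and Ptprc (4.74) on array 15 and Cntnap4 (6.09) on array 17. Hapln1, Rftn1, Adamts5 and Cntnap4 were named because their profiles were close to that of a member. The chance rate given above therefore does not hold for them, and the array 14 values of Hapln1 and Rftn1 are descriptions.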

How the results depend on the processing

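The differences of Cntn1, Cntn4, L1cam, Ncam1, Ncam2 and Chl1 kept their direction under every alternative that gave a value, and of these genes with a test only Ncam1 lost its call. This happened after quantile normalization of the clusters (0.79, limma adjusted p = 0.0745) and without array 17 or 19; leaving out each array in turn, its difference ran from 0.60 to 0.89. Cntn1 ran from 5.24 to 6.98 when each array was left out, and Chl1 from 2.36 to 3.28. The count of members called higher apart from Cntn1 was 5, and 4 to 5 with each array left out. It was 3 where the filter had to be reached on all 8 arrays and 2 with a filter at the 75th percentile, settings that test fewer genes. With that filter 10 partners and 6 other adhesion genes were called higher, in place of 18 and 11. Cntn4 and Ncam2 gave no value under those 2 filters, and L1cam none at the 75th percentile. The populations share no replicate number in the labels. Values of some genes nevertheless went together within consecutive title numbers: Cwc22, named after its values were seen, was at 8.20 and 7.86 on arrays 13 and 14, 9.28 and 9.43 on 15 and 16, 14.70 and 14.34 on 17 and 18, and 13.89 and 13.47 on 19 and 20. With these numbers as a replicate block the difference of Ncam1 was 0.77 ± 0.080 (SE; limma adjusted p = 0.00133), and 5 members apart from Cntn1 were called higher. Values under the negative control rows limit Cntn1, Cntn4, Ncam2 and L1cam on all CD90- arrays, Chl1 on CD90- array 13, Ncam2 on all CD90+ arrays and Cntn4 on 2 of them.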

Other observations

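The other marker lists differed in their counts, beside 14.0% of all genes called higher and 15.7% lower. The 9 epithelial and the 4 tested endothelial genes had 0 calls by limma in either direction. Of 5 tested leukocyte genes 3 were called higher, from a list in which 7 of 9 measured genes lay below the negative control rows on all 8 arrays, Ptprc and Cd3e among them. Pericyte genes went both ways, with 3 higher and 3 lower of 6, as did smooth muscle genes, with 4 higher and 3 lower of 8. Of 4 measured genes of interstitial cells of Cajal 2 were called lower, and of 3 tested mesothelial genes 2 were called higher, with Upk3b tested only through its CD90+ arrays. Among 9 fibroblast genes 3 were higher and 1 lower.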
